A study of Mus musculus with 8 samples.

Results

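C/EBPα binding in mouse liver was compared between wild-type mice given a vector coding for C/EBPα (AAV_Cebpa) and wild-type mice given an empty vector (AAV_Null). The comparison used 4 of the 8 C/EBPα ChIP-seq libraries of the study, 2 in each group. ChIP-seq recovers and sequences the DNA bound by a protein, and each deposited list gives the 200 bp peaks found in 1 library. Overlapping peaks of the 4 lists (1 bp or more) were merged to sites, and 235358 peaks gave 100445 sites. All 8 lists together held 446523 peaks in 113353 sites.

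Both groups were C57B/6 mice aged 8 to 10 weeks, kept on chow, fasted for 4 hours and injected intraperitoneally with 1e12 gc of an adeno-associated virus (AAV). The groups differed in the vector's cargo. Liver was crosslinked in 1% formaldehyde, and the antibody (C/EBPa, sc-61, Santa Cruz) was the same in all libraries. The other 4 libraries came from floxed Trib1 mice given 1.5e11 gc of an empty vector (Trib1_WT) or of AAV_Cre (Trib1_LSKO). The labels name neither the promoter of the C/EBPα vector nor the interval between injection and harvest. They do not say whether replicates were separate mice, so p-values measure only the spread between these libraries, which may be technical. Peak lists hold no RNA or protein, so neither the amount of C/EBPα nor the cell types of the liver could be checked.

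C/EBPα is a basic leucine zipper transcription factor that binds DNA as a dimer. In hepatocytes it occupies promoters and enhancers of genes for plasma proteins, glucose and lipid metabolism and detoxification. Several C/EBP proteins recognise similar DNA, and many other liver factors bind at the same enhancers.

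The AAV_Null lists held 46348 and 49052 peaks, and the AAV_Cebpa lists held 59564 and 80394. The means were 47700 ± 1912 and 69979 ± 14729 (SD, n = 2 each). The groups did not overlap, and the exact two-sided permutation test gave p = 0.333, the smallest value that 2 against 2 libraries allow. Deposited signal values were near-whole multiples of 1 step per library, which gave relative depths of 1 and 1.17 in AAV_Null and 1.85 and 2.27 in AAV_Cebpa. Depth therefore moved with the group, and its part in the differences below cannot be told apart from the vector. The signal also spanned less in AAV_Cebpa: the 99th percentile of a list was 6.95 and 6.64 times its median in AAV_Null, and 4.72 and 4.69 times in AAV_Cebpa. AAV_Cebpa replicate 2 stood apart, with 18333 sites called in that library alone.

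Most binding sites of control liver remained in the lists after overexpression, but their order of strength was rearranged. Both AAV_Null lists held 37805 sites, of which 27628 (73.1%) were also in both AAV_Cebpa lists and are referred to as common sites. Each library's signal was ranked over these common sites, so that 100 is the strongest and list length does not enter the scale. Among them, 5175 (18.7%) had a higher rank and 5867 (21.2%) a lower rank in AAV_Cebpa at an adjusted p under 0.05 (limma on normal scores of the ranks, Benjamini-Hochberg adjustment). At an unadjusted p under 0.05 there were 13426 such sites. Both AAV_Cebpa ranks lay above both AAV_Null ranks at 8455 sites (30.6%) and below them at 11130 (40.3%). A gap of at least 10 percentile points separated the groups at 4970 sites (18%) in the upward and 5491 (19.9%) in the downward direction.

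Replicates ordered the common sites more alike than the groups did. Spearman's rho across sites, given as a description, was 0.928 between the AAV_Null libraries and 0.955 between the AAV_Cebpa libraries. Between libraries of different groups it was 0.621 to 0.693. A site's rank differed by a median of 5.91 points between the AAV_Null replicates and 5.05 points between the AAV_Cebpa replicates, against 12.3 to 14.1 points for libraries of different groups. Of the 1000 strongest common sites by group mean, 515 (51.5%) were shared between the groups, whereas the AAV_Null replicates shared 795 and the AAV_Cebpa replicates 734.

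**Figure D1:**
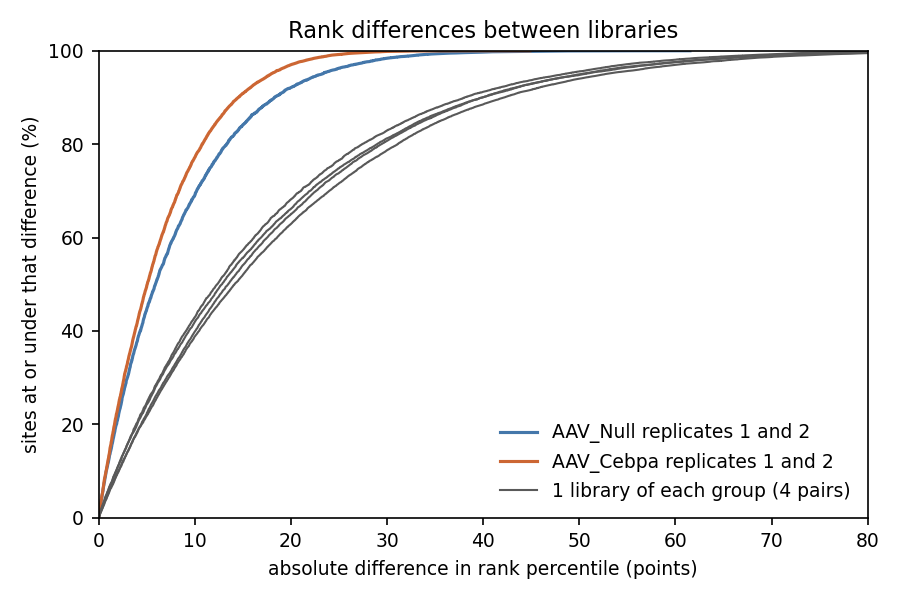
Cumulative share of the 27628 common sites (vertical axis, percent) at or under a given absolute difference in rank percentile (horizontal axis, points), for the 2 replicate pairs and the 4 pairs of libraries from different groups. The curves of the replicate pairs lie above all 4 between-group curves, with medians of 5.91 and 5.05 points against 12.3 to 14.1.

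Rank changes were large and reached through most of the range of strength. Sites called higher moved from a median rank of 29.3 to 73.7, with a median shift of 31.4 points, and sites called lower moved from 70.0 to 36.8, with a median shift of -25.4 points. The median shift of all common sites was -2.08 points. Shifts of at least 50 points were more frequent upward, at 969 sites, than downward, at 269 sites. Where the mean rank over the 4 libraries was above 99, 9 of 159 sites were called higher and 22 lower. Where it lay between 25 and 50, 1881 of 8436 were called higher and 1919 lower. The balance of directions depended on the scale: 46.9% of called sites were higher by ranks among common sites, but 67.7% (6224 of 9191) by percentiles within each whole list, and 37.0% by log2 signal centred on the median.

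**Figure D2:**
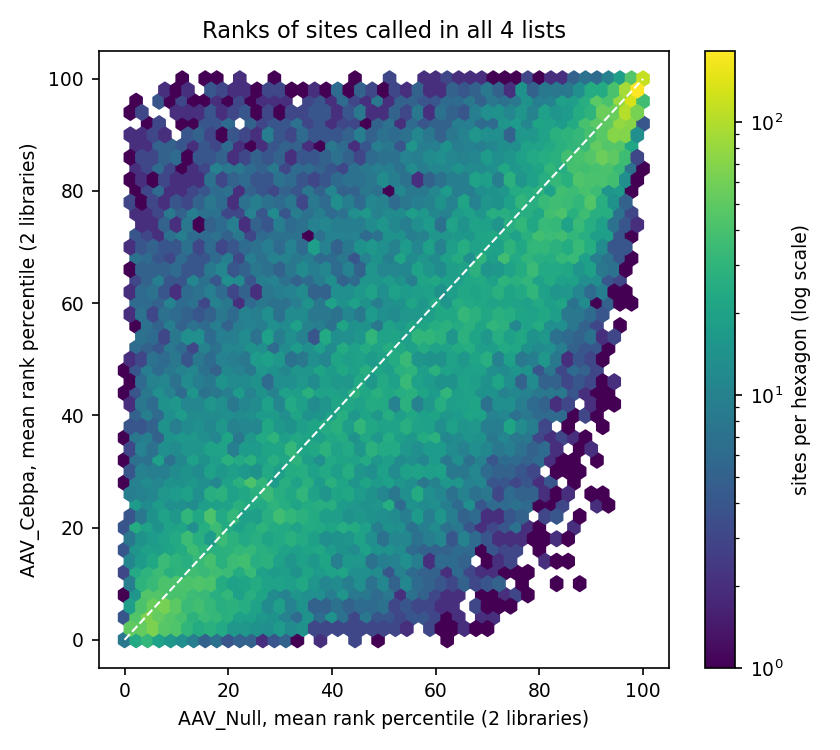
Mean rank percentile of each common site in AAV_Null (horizontal axis) and AAV_Cebpa (vertical axis), averaged over 2 libraries each, with the number of sites per hexagon on a log colour scale. Sites fill both sides of the diagonal, and the upper left corner (weak in AAV_Null, strong in AAV_Cebpa; shifts of at least 50 points at 969 sites) is fuller than the lower right (269 sites).

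The largest rises took sites from the bottom of the AAV_Null order to the top of the AAV_Cebpa order. At chr3:149650859-149651123 the ranks were 2.22 and 0.139 in the AAV_Null libraries and 94.6 and 97.6 in the AAV_Cebpa libraries, a shift of 94.9 points (limma adjusted p = 6.26e-07). At chr10:16797434-16797684 they were 3.72 and 0.63, then 94.7 and 93.3 (shift 91.8). At chr16:65726181-65726414 they were 3.72 and 1.47, then 92.8 and 94.7 (shift 91.2). Sites were named only where the groups did not overlap, and at these 3 the replicates lay within a few points of each other. The other 5 of the 8 largest rises, at chr14:75580587-75580845, chr11:28893492-28893717, chr1:108423462-108423729, chr7:120228502-120228770 and chr3:59227698-59227962, had shifts of 90.4, 90.3, 89.9, 89.8 and 89.7 points.

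The largest falls were shorter than the largest rises. At chr7:46594908-46595121 the ranks were 87.8 and 88.02 in AAV_Null and 7.99 and 9.82 in AAV_Cebpa, a shift of -79.0 points (limma adjusted p = 1.58e-06). At chr19:39361383-39361618, in the Cyp2c gene cluster, they were 82.2 and 84.1, then 10.9 and 7.70 (shift -73.9). The eighth fall, chr19:40162890-40163156, lay in the same cluster, with ranks of 83.8 and 88.6, then 15.8 and 20.4 (shift -68.1). Cyp2c genes code for cytochrome P450 enzymes that oxidise drugs and fatty acids in the liver. The remaining 5 of the 8 largest falls, at chr12:79030638-79030874, chrX:83123175-83123396, chr11:17551477-17551697, chr16:9527370-9527584 and chr8:7092930-7093174, had shifts of -71.0, -70.8, -70.0, -69.5 and -69.0 points.

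**Figure D3:**
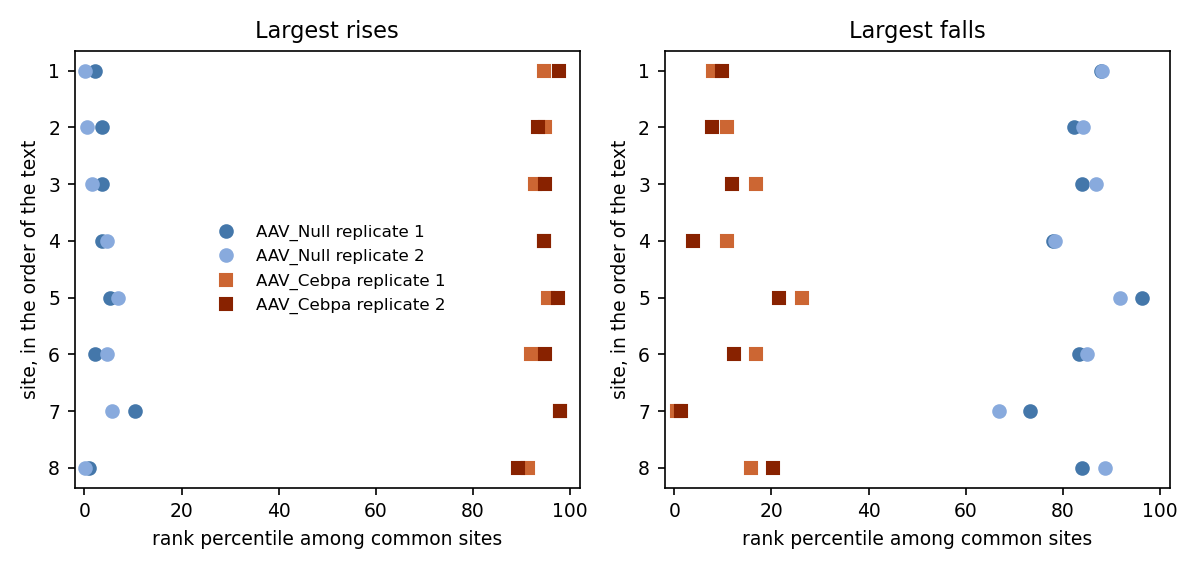
Rank percentile among common sites (horizontal axis) in each of the 4 libraries for the 8 largest rises (left) and the 8 largest falls (right), numbered in order of size. Sites were chosen for the size of the shift and for groups that do not overlap; rises run from 94.9 to 89.7 points and falls from -79.0 to -68.1.

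The 5 common sites with the highest mean rank were chr1:90175745-90175962, chr1:90174049-90174253, chr6:138088532-138088743, chr12:8439756-8439982 and chr1:90110259-90110464. The first ranked 100 in all 4 libraries. None of the 5 was called by limma, with adjusted p-values from 0.286 to 1. Sites with the highest mean over all 4 libraries must be near the top in both groups, so this is a description.

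Sites present in one group only were mostly gained. Gained sites, called in both AAV_Cebpa and neither AAV_Null library, numbered 22164 (22.1% of the 100445 sites, and 39.7% of those called in both AAV_Cebpa libraries). Lost sites, called in both AAV_Null and neither AAV_Cebpa library, numbered 6074 (6.05%, and 16.1% of those called in both AAV_Null libraries). Gained sites outnumbered lost sites by 3.65 to 1. With all 4 lists reduced to equal length there were 12824 gained and 9716 lost sites, a ratio of 1.32. Without AAV_Cebpa replicate 1 there were 40527 gained sites. Lost sites numbered 9437 without AAV_Cebpa replicate 2, 12399 without AAV_Null replicate 1 and 10150 without AAV_Null replicate 2, since each of these settings requires 1 list fewer.

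Few changed sites were strong, and the share was higher among gained sites. A percentile of at least 90 in both lists that held the site was reached by 376 gained sites (1.70%) and 25 lost sites (0.412%). With lists of equal length these were 215 (1.68%) and 24 (0.247%). A percentile of at least 99 was reached by 10 gained sites and 1 lost site. In the strongest 10% of the AAV_Null lists, 0.718% and 0.773% of sites were lost and 98.2% and 97.9% were common. In the strongest 10% of the AAV_Cebpa lists, 6.44% and 12.8% were gained and 89.7% and 81.5% were common. The weakest 10% differed between the AAV_Cebpa replicates: 57.5% of it was gained in replicate 1 and 13.2% in replicate 2.

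**Figure D4:**
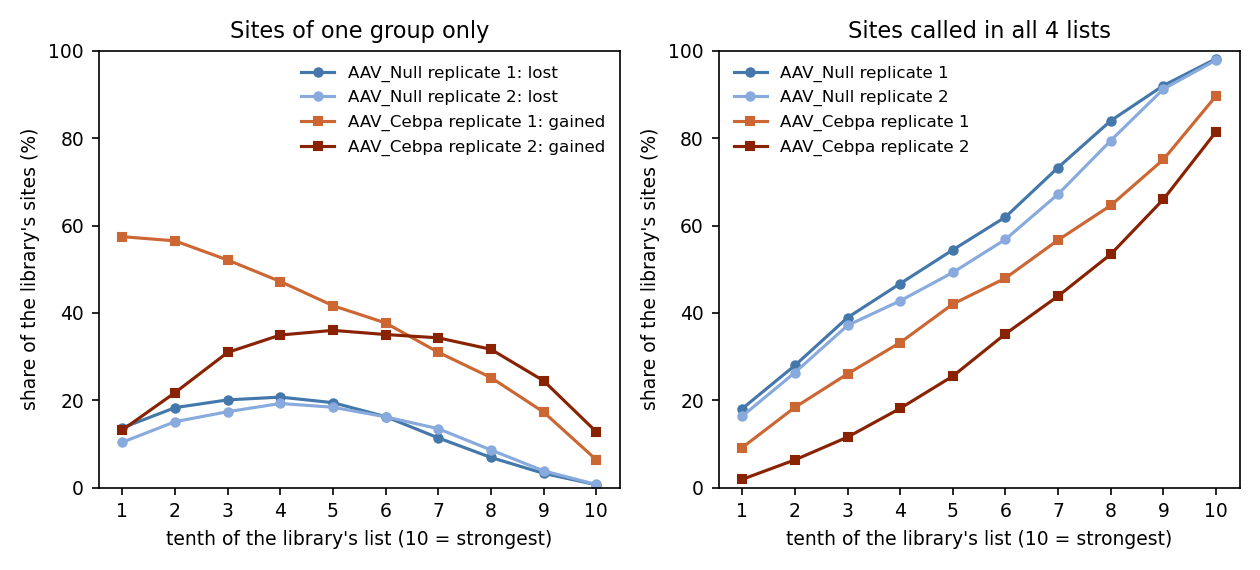
Share of each library's sites (vertical axis, percent) that were gained or lost (left) or common to all 4 lists (right), by steps of 10% of that library's list from weakest (1) to strongest (10). In the strongest 10%, lost sites make up 0.718% and 0.773% of the AAV_Null lists, and gained sites 6.44% and 12.8% of the AAV_Cebpa lists.

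Strong lost sites mostly had a peak of the other group close beside them. Peaks of 1 list were rarely closer than 400 bp from start to start (13 to 26 pairs per list, against 348 to 727 pairs at 400 to 500 bp). Distances here are from a peak's midpoint to the edge of the site. Within 400 bp of 702 of the 6074 lost sites (11.6%) the AAV_Cebpa lists had another peak, and within 400 bp of 908 of the 22164 gained sites (4.10%) the AAV_Null lists had one. The share increased with strength. Of lost sites with a mean percentile above 90, 27 of 33 (81.8%) had such a neighbour, against 66 of 580 (11.4%) of gained sites. Among the 12 strongest of each kind, 10 lost sites and 0 gained sites did. Measured from midpoint to midpoint, like the spacing inside a list, the counts were 494 lost sites (8.13%) and 568 gained sites (2.56%). Above a mean percentile of 90 they were then 24 of 33 and 55 of 580.

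**Figure D5:**
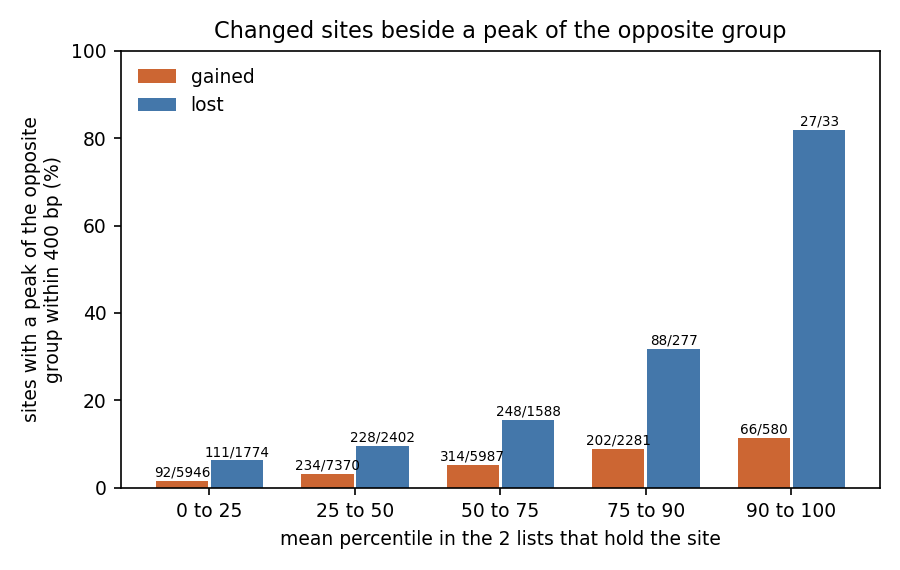
Share of gained and lost sites (vertical axis, percent) that had an opposite-group peak no more than 400 bp away, by mean percentile in the 2 lists that hold the site (horizontal axis), with counts above the bars. The share among lost sites rises from 6.26% to 81.8%, and among gained sites from 1.55% to 11.4%.

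Gained and lost sites formed 419 pairs within 400 bp of each other, from 418 gained and 415 lost sites. The mean percentile of a pair ran from 8.13 to 97.3, with a median of 60.5. In the strongest pair, on chromosome 4, the lost site chr4:105868229-105868435 (percentiles 97.9 and 97.7 in AAV_Null) and the gained site chr4:105868479-105868718 (97.2 and 96.4 in AAV_Cebpa) were 43 bp apart. There both groups had a strong peak, at different positions. Without any site that had a neighbour of the opposite group within 400 bp, 21256 gained and 5372 lost sites remained. Whether the position of binding or only that of the call moved was not tested.

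The strongest gained site lay in the gene for C/EBPα itself. Gene names here and below are background knowledge of build mm9 and were not checked against an annotation, and the intervals around the genes were chosen after their values were seen. The site chr7:35905237-35905462, inside the single exon of Cebpa, had percentiles of 99.993 and 99.999 in the AAV_Cebpa lists and no peak in either AAV_Null list. Nearby, chr7:35904536-35904735 was called in AAV_Cebpa replicate 1 alone, at 98.1. Another site, chr7:35904031-35904239, had 93.7 and 90.9 in AAV_Null and 92.9 in AAV_Cebpa replicate 2. The vector also codes for C/EBPα, and how much of the signal in the exon came from vector DNA was not tested. The 160 kb around the gene held 26 sites. Of these, 4 were gained (15.4%) and 5 lost (19.2%), against 22.1% and 6.05% of all sites. Of the 9 common sites in this interval, 4 were called higher and 1 lower, against 18.7% and 21.2% of all common sites. By log2 signal, and with the replicate block, 3 were called higher. The largest of these rises, at chr7:35826421-35826696, went from ranks of 13.9 and 18.9 to 74.0 and 76.8 (limma adjusted p = 4.04e-05).

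The second strongest gained site, chr15:59538703-59538924 (99.75 and 99.98 in the AAV_Cebpa lists), lay downstream of Trib1, which codes for the pseudokinase Tribbles-1. Tribbles-1 brings C/EBPα to the ubiquitin ligase COP1 for degradation. In the 150 kb from just before Trib1 to beyond this site there were 36 sites, of which 18 were common, 10 gained (27.8%) and 1 lost (2.78%), against 22.1% and 6.05% of all sites. Of the 18 common sites, 9 were called higher and 2 lower, against 18.7% and 21.2% of all common sites. By log2 signal centred on the median, the split was 5 higher and 5 lower.

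At chr15:59479991-59480198, at the start of the gene, the ranks were 99.2 and 98.96 in AAV_Null and 99.2 in both AAV_Cebpa libraries (limma adjusted p = 0.863), although by log2 signal centred on the median it was called lower (adjusted p = 0.0265). At chr15:59494189-59494412 they were 24.2 and 28.6, then 84.3 and 89.3, a shift of 60.4 points (limma adjusted p = 1.49e-05). At chr15:59583369-59583580 they were 61.1 and 14.998, then 96.0 and 97.8 (shift 58.8), and the AAV_Null replicates lay far apart. Both of these rises were also called on the scales of whole-list percentiles and log2 signal. The 1 Mb that holds Trib1 had 35 gained and 2 lost sites. Of its 49 common sites, 27 were called higher and 3 lower, against 18.7% and 21.2% of all common sites. These calls are by rank, and by log2 signal the 150 kb interval had 5 higher and 5 lower.

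At Alb, which codes for serum albumin, all 4 common sites within the 40 kb examined were called lower, against 21.2% of all common sites. The site at its start, chr5:90889729-90889960, went from ranks of 87.0 and 89.4 to 70.0 and 74.0 (shift -16.3, limma adjusted p = 0.0111). Upstream, chr5:90886366-90886571 went from 93.8 and 89.9 to 38.6 and 24.7 (shift -60.2, adjusted p = 1.13e-05). Inside the gene, chr5:90895844-90896053 went from 85.8 and 92.2 to 55.8 and 36.2 (shift -43.0, adjusted p = 0.000227). The groups did not overlap at any of these. By whole-list percentile, 2 of the 4 sites remained called, and the site at the start of the gene was not (adjusted p = 0.0739). A further site inside the gene, chr5:90898111-90898318, was lost, with percentiles of 94.3 and 94.5 in AAV_Null. No gained site lay in this interval.

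Across the Cyp2c cluster, 14 of 30 common sites were called lower and 6 higher, with shifts from -73.9 to 50.4 points. The shares over all common sites were 21.2% and 18.7%. By whole-list percentile the counts were 9 lower and 8 higher, and by log2 signal 13 lower and 8 higher. Sites not far apart moved in opposite directions. At chr19:40127367-40127569 ranks rose from 27.4 and 17.6 to 75.3 and 70.6 (shift 50.4, limma adjusted p = 0.000199), and at chr19:40163963-40164212 they fell from 75.5 and 79.9 to 32.2 and 44.2 (shift -39.5, limma adjusted p = 0.00076). Of the 93 sites in the cluster, 11 were gained (11.8%) and 4 lost (4.30%), against 22.1% and 6.05% of all sites.

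The strongest lost site, chr17:39984685-39984884, had percentiles of 99.99 and 99.9 in AAV_Null and no peak in AAV_Cebpa. It lies at Rn45s, the copy of the 45S ribosomal RNA precursor placed on chromosome 17. Ribosomal RNA genes occur in many copies, so reads there cannot be assigned to 1 place. The next, chr1:90184755-90184976 (98.6 and 99.9), lay within 10 kb of the strongest common site. The other 10 of the 12 strongest lost sites, from 97.8 down to 94.5 in mean percentile, each had an AAV_Cebpa peak within 400 bp. With peaks widened to 400 bp before joining, none of these 10 was still a lost site.

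The other 10 of the 12 strongest gained sites had mean percentiles from 99.8 to 99.1. They were chr12:119958702-119958911, chr13:34201560-34201770, chr15:101414079-101414303, chr18:84325224-84325425, chr5:92050339-92050538, chr1:88830331-88830550, chr7:141223531-141223754, chr15:10136257-10136555, chr9:45845026-45845251 and chr5:150475312-150475512. No AAV_Null peak lay within 400 bp of any of these. Of the 12 strongest gained sites, 11 were called in both Trib1_LSKO libraries, 4 in both Trib1_WT libraries and 8 in neither Trib1_WT library. Over all gained sites these shares were 23.1%, 12.1% and 74.4%. The strongest gained site, in the exon of Cebpa, was called in no Trib1 library. Only 1.70% of all gained sites reached a percentile of at least 90 in both lists, so sites of like strength are not compared here. Of the 12 strongest lost sites, 6 were called in both Trib1_LSKO and 7 in both Trib1_WT libraries, against 32.6% and 55.5% of all lost sites.

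Which changed sites lay farther from common sites depended on list length. With the full lists, the median distance to the nearest common site was 17452 bp for gained and 10327 bp for lost sites, against 9468 bp between common sites. More than 50 kb separated 26.3% of gained, 15.99% of lost and 12.8% of common sites from the nearest common site. With lists of equal length the order was the reverse, with medians of 13916 bp for gained and 15701 bp for lost sites.

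Neighbouring common sites shifted together over short distances. Spearman's rho between the shifts of adjacent common sites was 0.341 over 1443 pairs at most 1 kb apart, 0.282 over 3639 pairs at 1 to 5 kb, 0.103 at 5 to 20 kb and 0.0178 beyond 100 kb. The same measure on the difference between replicates, for pairs at most 1 kb apart, was 0.226 in AAV_Null and 0.116 in AAV_Cebpa. At 5 to 20 kb it was 0.104 in AAV_Null, no lower than that of the shift, and beyond 100 kb it was 0.0448. These values are descriptions, since adjacent sites share libraries and local coverage. Of common sites within 5 kb of a gained site, 22.8% were called higher and 18.5% lower, against 13.9% and 26.0% of those more than 50 kb from one. Within 5 kb of a lost site, 18.4% were called higher and 24.7% lower, against 20.5% and 18.6% of those more than 50 kb from one. At 5 to 50 kb from a lost site the shares were 16.2% and 24.5%, so the lower share was not particular to the nearest sites.

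Gained sites outnumbered lost sites in 2169 of 2508 bins of 1 Mb, and lost sites outnumbered gained sites in 107. With lists of equal length these were 1337 and 735 of 2394 bins, so the counts in this paragraph move with list length. The bins with most gained sites were at 55 to 56 Mb on chromosome 15 (43 gained, 2 lost), 55 to 56 Mb on chromosome 18 (40 and 7), 25 to 26 Mb on chromosome 16 (36 and 1), 59 to 60 Mb on chromosome 15 (35 and 2) and 24 to 25 Mb on chromosome 16 (35 and 7). The bins with most lost sites were at 147 to 148 Mb on chromosome 2 (14 lost, 6 gained), 122 to 123 Mb on chromosome 3 (14 and 16), 93 to 94 Mb on chromosome 1 (13 and 14), 39 to 40 Mb on chromosome 18 (13 and 20) and 167 to 168 Mb on chromosome 2 (13 and 12). Even there, gained sites were the more numerous in 3 of the 5 bins. The ratio of gained to lost sites ran from 2.81 on chromosome 17 to 6.10 on chromosome X.

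The same sites were ranked in the Trib1 libraries, which have their own controls. No Trib1 site was tested. Of 27628 common sites, 24241 were called in all 8 lists. The shift from Trib1_WT to Trib1_LSKO had a median of 10.3 points at 4609 sites called higher in AAV_Cebpa and was positive at 80.1% of them. The median ranks of these sites were 40.8 and 37.5 in the Trib1_WT libraries and 60.8 and 57.2 in the Trib1_LSKO libraries. At 5574 sites called lower it had a median of -6.14 points and was positive at 17.9%, with median ranks of 59.8 and 61.5 in Trib1_WT and 50.4 and 54.2 in Trib1_LSKO. At the remaining 14058 sites the median was -2.12 points, and the shift was positive at 37.9%. Over all 24241 sites it was positive at 41.3%. Spearman's rho between the shifts of the 2 experiments was 0.499 across sites, given as a description.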

How the data were processed

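C/EBPα ChIP-seq was run on mouse liver, and the lists of 4 of 8 libraries were compared. Bowtie, HOMER and build mm9 were used, per the submitters' processing notes. Tool versions, input controls, peak thresholds and duplicate handling: not given in the sources used here. The authors deposited 1 peak list per library, with a position and 1 signal value per peak. The signal is the authors' value and was used inside its own list only. Its step gave relative depth, and absolute depth is unknown.

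Peaks overlapping by at least 1 bp were joined across the 4 lists (median site width 213 bp). A percentile is the rank within a whole list. A rank is the percentile among sites called in all 4 lists. Ranks were turned into normal scores and tested with limma 3.58.1 (R 4.3.3; trend on), without a replicate block, with Benjamini-Hochberg adjustment over 27628 sites at 0.05. Limma drew each site's variance toward that of other common sites, with 11.9 prior against 2 residual degrees of freedom. Its small p-values thus rest mostly on spread pooled over sites. The fit was also run on simulated data with independent noise of constant size and no depth difference between groups. That run cannot speak to the effect of depth. With 2 libraries a group, the exact permutation test cannot go below 0.333.

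Named sites were the 12 gained and 12 lost sites of highest mean percentile, the 8 largest called rises and 8 largest called falls without overlap, the 5 strongest common sites and the 5 bins with most gained and most lost sites. Members and lists were chosen with earlier results of these data known. The 400 bp spacing and its midpoint version, the equal-length counts of strong sites and bins, the width limit, the bin medians and the reading of the Trib1 libraries were added after seeing the data. Other alternatives covered joining, list length, the strongest 50% of each list, rank scale, weak sites, autosomes, bin size and single libraries. An mm9 genome or annotation was not used here, so planned gene lists were not counted and no sequence is shown.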

Additional observations from a re-analysis of the deposited data

How the results depend on the processing

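Of 54 counts and distances of the main comparisons under alternatives, 40 stayed within 1.5 times of the reported value and 14 did not. The differences in peak number are not in this tally. Without AAV_Cebpa replicate 2 that difference was 11864, outside 1.5 times of the 22279 with all libraries. Gained and lost sites numbered 11358 and 3171 in the strongest 50% of each list, 6966 and 1451 when a site had to be in the strongest 50% of its own group's lists and missing from the whole opposite lists, and 12824 and 9716 with lists of equal length. Leaving out each library gave 24541 to 40527 gained sites, 6831 to 12399 lost sites, 3507 to 5402 sites of higher rank, 3642 to 5878 of lower rank and a peak-number difference of 11864 to 32694. The low of 3642 came without AAV_Cebpa replicate 2, and the lone library is then assumed to vary like the other group. Percentiles within the whole list gave 2967 sites of lower rank. Bins of 500 kb held at most 28 gained sites, and with lists of equal length the median distance of lost sites was 15700.8 bp, above the 13916 bp of gained sites and so in the reverse order. The named rises and falls were chosen for large called shifts in these same libraries, so their stability is no independent check. They kept direction and call in all 175 values that could be had. Another 17 of 192 had no value because the site was no longer among the common sites, for 9 of 16 sites with lists of equal length, 7 with wide sites left out and 1 with autosomes only. Named gained sites remained gained in 132 of 132 values and named lost sites remained lost in 112 of 132. Most of these values could not differ, because sites this strong keep their class when a library is left out or lists are shortened. The 20 lost values that moved came from 10 sites, with peaks widened to 400 bp and without sites beside an opposite-group peak. The cause of these changes was not tested, beyond the fewer lists or peaks that several settings use.

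The replicate block gave 5224 sites of higher and 5783 of lower rank, and 10737 of the 11042 calls were shared. The labels do not say whether a replicate number marks a shared animal, day or batch. Spearman's rho of the replicate differences of both groups was -0.0579, which cannot settle this. A count test on tags recovered from the signal step was not run, because the lists hold signal values from a minimum upward rather than counts. Depth differed between the groups, so for weak gained and lost sites, depth and vector cannot be told apart.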

Other observations

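The 1 Mb bins with the lowest and the highest median shift were chosen after their values were seen, among bins with at least 10 common sites. At 60 to 61 Mb on chromosome 9 the median shift of common sites was -29.4 points, with 0 of 11 called higher and 9 lower. At 23 to 24 Mb on chromosome 5 it was 20.5 points, with 5 of 10 called higher and 1 lower. Over all common sites, 18.7% were called higher and 21.2% lower.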
